A study of Rattus norvegicus with 18 samples.

Results

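The 9 genes studied here move or process vitamin A in the eye, and they were followed through the retina and the retinal pigment epithelium (RPE)/choroid of Fischer 344 rats. They are Rpe65, Lrat, Rdh5, Rdh8, Rdh10, Rdh12, Rlbp1, Rgr and Rbp3, chosen by name, and all 9 were found among the 32285 genes of the retina table and the 32552 genes of the RPE/choroid table. The rats were wild type and, per the study's methods, female. In each tissue 3 libraries came from untreated young rats of 4 months, 3 from aged rats of 24 months that drank plain water, and 3 from aged rats that received 8-aminoguanine (8-AG), a small-molecule purine, at 5 mg/kg/day in drinking water for 8 weeks from 22 months of age. The strain is albino and its retina degenerates with age. The RPE/choroid material was washed from the eye cup with lysis reagent after the neural retina had been lifted off, so it was not a purified RPE preparation.

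Rods and cones detect light when it isomerizes retinal bound to opsin, and the visual cycle restores the light-sensitive form. In photoreceptors the spent retinal is reduced to retinol by Rdh8 in the outer segment and Rdh12 in the inner segment. Rbp3 encodes the carrier protein of the interphotoreceptor matrix, which photoreceptors secrete and which binds retinoids in the space between retina and RPE. In the RPE, Lrat esterifies retinol, Rpe65 isomerizes the ester and Rdh5 oxidizes the product back to retinal. Rlbp1 encodes CRALBP, the binding protein that holds the cis retinoids in RPE and Müller glia, while Rgr, an opsin, and Rdh10, a retinol dehydrogenase, are found in both of these cell types.

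The 250 bases before the start of transcription of the members were searched for TAATCC on either strand, the core that OTX2 (RPE and photoreceptors) and CRX (photoreceptors) can bind. RefSeq promoters were at hand for 7 of the 9 members, and 3 of these 7 held the core, against 6.34% of 33469 promoters of the same length. These 3, from an RPE gene, an RPE and Müller gene and a photoreceptor gene, are shown 5′ to 3′ with the core or its reverse complement GGATTA in capitals. Coordinates are those of the GRCr8 assembly, which is a later build than the one used to count reads.
Rpe65 (chr2:251425118-251425367, + strand): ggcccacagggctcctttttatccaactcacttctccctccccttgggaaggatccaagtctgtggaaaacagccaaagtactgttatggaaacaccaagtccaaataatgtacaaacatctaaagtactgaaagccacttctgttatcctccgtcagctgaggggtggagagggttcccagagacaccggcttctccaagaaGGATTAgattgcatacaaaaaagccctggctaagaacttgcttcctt
Rgr (chr16:12836487-12836736, - strand): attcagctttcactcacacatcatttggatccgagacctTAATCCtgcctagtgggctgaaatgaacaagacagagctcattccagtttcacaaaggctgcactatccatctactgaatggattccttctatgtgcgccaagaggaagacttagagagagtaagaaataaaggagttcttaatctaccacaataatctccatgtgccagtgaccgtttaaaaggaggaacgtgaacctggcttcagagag
Rbp3 (chr16:9273537-9273786, + strand): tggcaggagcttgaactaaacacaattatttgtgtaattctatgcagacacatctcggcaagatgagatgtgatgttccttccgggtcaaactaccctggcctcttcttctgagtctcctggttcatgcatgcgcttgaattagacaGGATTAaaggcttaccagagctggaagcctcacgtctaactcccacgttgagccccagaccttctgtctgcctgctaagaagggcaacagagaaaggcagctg
The core began 47 bases before the start in Rpe65, 211 bases before it in Rgr and 103 bases before it in Rbp3. Of other short motifs, CATGTG, which MITF can bind, was in the promoters of 3 of the 7 members and in 12.1% of all promoters. TGCTGA, a half-site of the MAF family that includes the rod factor NRL, was in 2 of the 7 and in 15.1% of all. A match of these letters is a description of the sequence, and whether a factor bound there was not measured.

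Library totals ran from 12283458 to 15644346 counts in retina and from 28573828 to 48203050 counts in RPE/choroid. Levels are CPM (counts scaled to a library of 1000000 counts) scaled by the trimmed mean of M-values (TMM) within a tissue. No transcript lengths were used, so levels were compared between samples and not between genes. Best1, a chloride channel of the RPE, was at 9.25 to 23.5 CPM in retina and at 427 to 996 CPM in RPE/choroid. Rod genes were also present in every RPE/choroid library, with a summed level of 14 genes of 636 to 56645 CPM. In bulk tissue, fewer cells of a type and less RNA per cell cannot be told apart. The labels give total RNA as the molecule of the 3 8-AG retina libraries and polyA RNA for all others, so that any effect of this difference and of 8-AG cannot be told apart in retina. The protocol text describes poly-A capture for these 3 as well, so whether their preparation differed is not known. The labels do not state that each library came from its own animal, and in RPE/choroid young libraries 1 and 2, and aged libraries 1 and 2, carry one label number each with L and R. If L and R mark the eyes of the same animal, these libraries are not independent, yet the main tests counted each separately. P-values therefore measure the spread between libraries and not between animals, and some of that spread may be technical. Genes of other eye tissues differed between retina groups: 11 lens genes summed to 167 to 6766 CPM in young and 17.7 to 24.2 CPM in aged libraries, and 9 microglia and macrophage genes to 36.7 to 38 CPM in young and 115 to 198 CPM in aged libraries. Their part in the results was not tested. Genes of surface epithelium summed to 10.6 to 27.2 CPM in 8-AG and 0.831 to 3.7 CPM in aged retina, and their part was not tested either.

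The photoreceptor members Rbp3 and Rdh12 fell in aged retina, whereas Rdh8 stayed near its young level. Rlbp1 of Müller glia and RPE fell by a smaller amount. The 4 RPE-side genes Rpe65, Lrat, Rdh5 and Rgr were present at low levels that differed widely between libraries of one group. The study's rule asks for more than a 1.5-fold change and an unadjusted P under 0.05, and 1 of the 9 members (Rbp3) met it, as did 8.84% of the 14588 genes tested. By an adjusted p under 0.05 (edgeR quasi-likelihood test, Benjamini-Hochberg over all genes tested) 3 members fell and 0 rose, against 7.26% of all genes that fell and 7.29% that rose. All 9 passed the filter on low counts in every comparison. The median log2 change of the members was 0.20 and that of all genes tested 0.002.

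**Figure D1:**
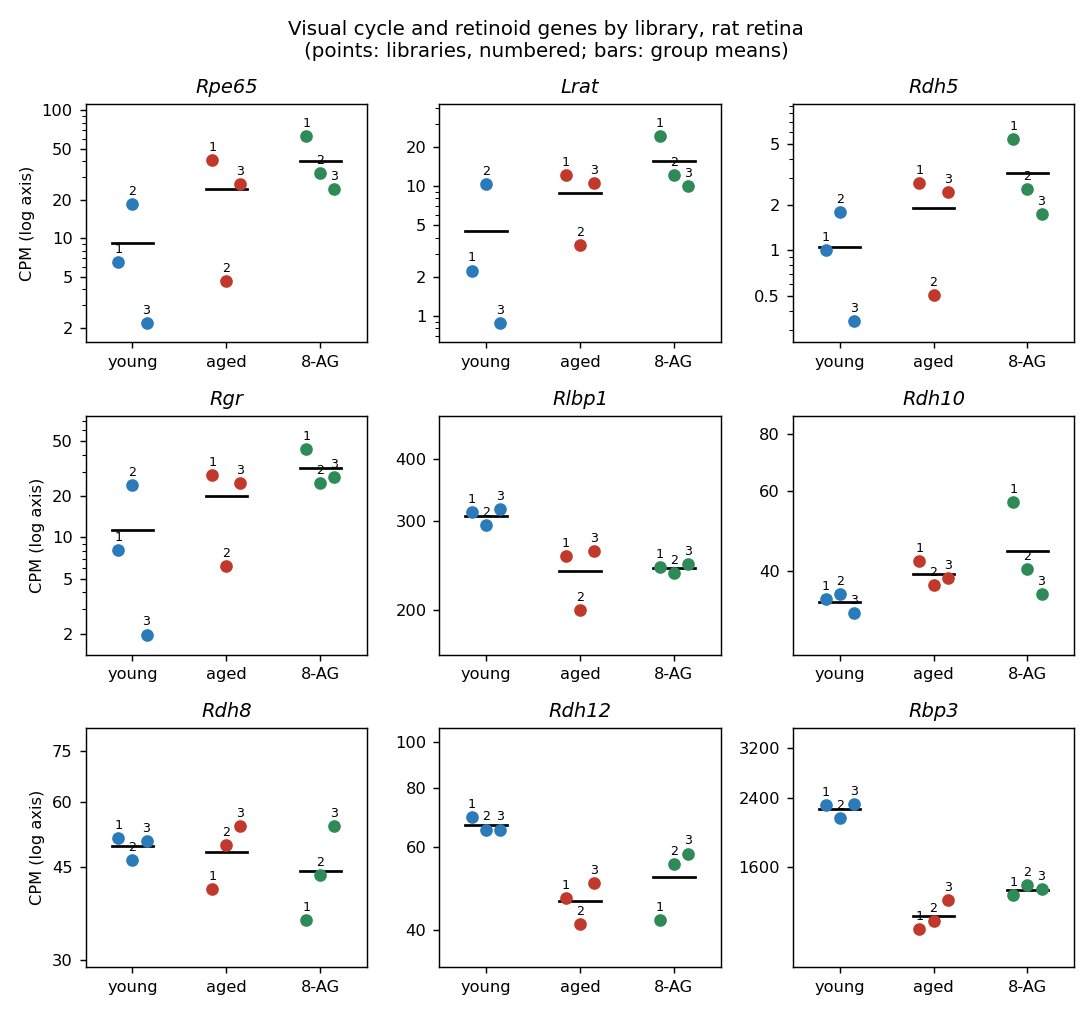
Each panel plots the CPM of one gene (log axis, scale set per panel) in the 9 retina libraries, with points numbered by library and bars at the group means. Rbp3 and Rdh12 separate young from aged libraries, whereas Rpe65, Lrat, Rdh5 and Rgr are spread within each group and high or low in the same libraries.

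Rbp3 (ENSRNOG00000051911) was at 2295, 2138 and 2312 CPM in young libraries 1 to 3, at 1117, 1172 and 1328 CPM in the aged libraries, and at 1365, 1442 and 1408 CPM after 8-AG. The 3 groups did not overlap, with young highest and aged lowest. The aged level was 1205 ± 110 CPM (SD, n = 3) against 2248 ± 95.7 CPM (SD, n = 3) in young retina, a log2 fold change of -0.90 with a standard error of 0.07 (95% confidence interval -1.06 to -0.73, adjusted p = 0.00013). Leaving out any 1 library kept this change between -0.97 and -0.85.

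Rdh12 (ENSRNOG00000056553) was at 69.4, 65.2 and 65.2 CPM in young retina and at 46.6, 41.1 and 50.3 CPM in aged retina. Every aged library lay below every young one, and the log2 change was -0.53 with a standard error of 0.08 (adjusted p = 0.0027). This is less than 1.5-fold; without aged library 3 it was -0.60 and passed the fold limit too. Rdh8 (ENSRNOG00000025767), the retinal reductase of the outer segment, was at 51.2, 46.5 and 50.5 CPM in young and at 40.9, 49.6 and 54.0 CPM in aged retina. These groups overlapped, and the 95% interval of the log2 change ran from -0.25 to 0.19, which excludes a change as large as that of Rbp3 or Rdh12.

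Rod genes as a group were also lower in aged retina, so the members were set against them. The summed level of 14 rod genes was 55933 to 61063 CPM in young and 35030 to 40032 CPM in aged retina, and 11 of the 14 fell at an adjusted p under 0.05, with a median log2 change of -0.63. Per 1000 CPM of rod genes, Rbp3 went from 37.9 ± 0.328 (SD, n = 3) in young to 32.3 ± 0.754 (SD, n = 3) in aged retina, whereas Rdh8 went from 0.833 ± 0.00449 to 1.29 ± 0.104 (SD, n = 3 each). Neither pair of groups overlapped, and the two-sided exact permutation p was 0.1 for both, the smallest that 3 against 3 libraries allow. Rdh12 per 1000 CPM of rod genes was 1.13 ± 0.0479 in young and 1.23 ± 0.108 in aged retina (SD, n = 3 each, exact permutation p = 0.3). Rlbp1 on this scale was 5.2 ± 0.0751 in young and 6.42 ± 0.933 in aged retina (SD, n = 3 each, exact permutation p = 0.1). Over these 8 tests, 4 genes in both retina comparisons, the Benjamini-Hochberg adjusted p was 0.2 or higher, and with 3 against 3 libraries this exact test could not reach 0.05, whatever the size of the difference; no other test was run on this scale.

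**Figure D2:**
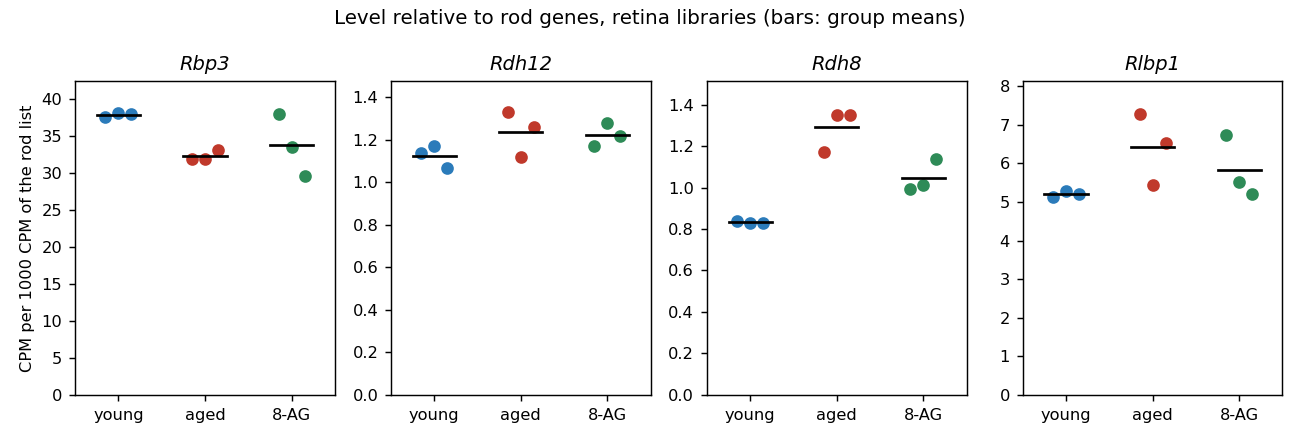
Bars mark the group means and points the 3 libraries per group of the member's CPM per 1000 CPM of 14 summed rod genes in retina (linear axis from 0). The aged libraries lie at 31.9 to 33.2 for Rbp3, below all young libraries, and at 1.17 to 1.35 for Rdh8, above all young libraries.

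Rlbp1 (ENSRNOG00000016897) was at 313, 295 and 317 CPM in young retina and at 256, 200 and 262 CPM in aged retina, with no overlap. Its log2 change was -0.36 with a standard error of 0.10 (adjusted p = 0.037). The adjusted p rose above 0.05 when any 1 of the 3 young libraries was left out (0.11, 0.075 and 0.089 without libraries 1, 2 and 3), while the change itself stayed between -0.43 and -0.25 over all left-out libraries. Other genes of Müller glia were mixed: of 10 listed, 2 rose and 2 fell at an adjusted p under 0.05. Rdh10 (ENSRNOG00000006681) was at 34.8, 35.6 and 32.4 CPM in young and at 42.2, 37.3 and 38.7 CPM in aged retina. Its groups did not overlap either, but the log2 difference of 0.20 (95% interval 0.02 to 0.38) had an unadjusted P of 0.033 and an adjusted p of 0.13 in the edgeR test and was not called.

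Rpe65 (ENSRNOG00000009582) was at 6.55, 18.5 and 2.18 CPM in young, at 41.1, 4.59 and 26.4 CPM in aged and at 63.3, 32.0 and 24.4 CPM in 8-AG retina. The level thus spanned 29.1-fold over the 9 libraries, more than between any 2 group means, and aged library 2 was below young libraries 1 and 2. Lrat (ENSRNOG00000025608) spanned 27.4-fold, Rgr (ENSRNOG00000012396) 22.2-fold and Rdh5 (ENSRNOG00000053850) 15.8-fold. Rdh5 rested on 5 to 70 counts a library. Young library 3 was the lowest of the 9 in all 4 genes and 8-AG library 1 the highest.

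Set against each other, these genes were far steadier. Rgr per 100 CPM of Rpe65 lay between 69.1 and 135 in the 9 retina libraries, a range of 1.95-fold, and Lrat per 100 CPM of Rpe65 between 29.7 and 76.4, a range of 2.57-fold. Slc16a8, a lactate transporter of the RPE that is not a member and was picked from the RPE marker list after its values were seen, spanned 13.7-fold, with the highest level in the same library. The summed RPE marker list of 9 genes, which includes Best1 and genes that neural retina also expresses, moved less (234 to 371 CPM). Mfrp of that list, named after its values were seen, ran from 3.67 CPM in young library 3 to 35.1 CPM in 8-AG library 1. Summed pigment-cell genes ran from 5.1 to 107 CPM in the same libraries. None of Rpe65, Lrat, Rdh5 and Rgr passed the test between aged and young retina. The log2 differences were 1.4 for Rpe65 (95% interval -1.71 to 4.51), 0.95 for Lrat (-1.82 to 3.72), 0.86 for Rdh5 (-0.92 to 2.63) and 0.80 for Rgr (-2.11 to 3.72), intervals that all included 0 and were wide. Leaving out 1 library moved the difference of Rpe65 between 0.76 (without aged library 1) and 2.47 (without young library 2) and that of Rgr between 0.29 (without young library 3) and 1.99 (without young library 2). Single libraries decided the call of 2 of them: Lrat met the fold and P rule without young library 2 (log2 2.5, unadjusted P of 0.027, adjusted p = 0.15 by edgeR) and Rdh5 without aged library 2 (log2 1.33, unadjusted P of 0.034, adjusted p = 0.17). With the mean log2 level of the RPE marker list as a covariate, chosen after seeing the data, the log2 differences were 0.23 for Rpe65, 0.12 for Lrat, -0.05 for Rdh5 and -0.15 for Rgr.

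After 8-AG no member in retina met the fold and P rule, which 0.957% of the 14631 genes tested met, and none had an adjusted p under 0.05 in edgeR or DESeq2. Rbp3 was the 1 member with an unadjusted P under 0.05. Its 8-AG libraries (1365 to 1442 CPM) lay above all aged libraries (1117 to 1328 CPM), with a log2 difference of 0.22 (95% interval 0.04 to 0.40, unadjusted P of 0.022, adjusted p = 1 by edgeR). With 1 library left out the difference ran from 0.17 to 0.29 and the unadjusted P of edgeR from 0.011 to 0.093. Per 1000 CPM of rod genes, however, Rbp3 was at 38, 33.6 and 29.7 in the 8-AG libraries, a range that holds the aged values of 31.9, 31.9 and 33.2 (exact permutation p = 0.7). Rdh8 on the same scale was at 1.05 ± 0.0799 after 8-AG against 1.29 ± 0.104 in aged retina (SD, n = 3 each), with no overlap and again the smallest exact permutation p of 0.1 (adjusted p = 0.2 over the 8 tests). Rdh12 and Rlbp1 overlapped between these groups (exact permutation p = 1 and 0.5).

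Rlbp1 lay between 237 and 247 CPM in the 3 8-AG libraries, with a log2 difference from aged retina of 0.02 (95% interval -0.21 to 0.24). Rdh12 was at 42.0, 55.1 and 58.0 CPM, from below the highest aged library to above it, with a log2 difference of 0.17 (-0.12 to 0.46). Rdh8 was at 35.7, 43.5 and 54.0 CPM and Rdh10 at 56.9, 40.5 and 35.7 CPM, so that 8-AG library 1 was the lowest of the 3 in the first and the highest in the second. Rpe65, Lrat, Rdh5 and Rgr had log2 differences of 0.69 to 0.82, with intervals that all included 0. With 1 library left out they ran from 0.24 to 1.38 for Rpe65, 0.34 to 1.15 for Lrat and 0.17 to 1.14 for Rdh5, each lowest without 8-AG library 1 and highest without aged library 1, and from 0.26 (without aged library 2) to 1.05 (without aged library 1) for Rgr. With the RPE marker covariate these differences were 0.02, 0.15, -0.04 and 0.06. Their means followed the order young, aged, 8-AG, but aged and 8-AG libraries overlapped in each. For Rlbp1, Rdh8, Rdh10 and Rdh12 the intervals exclude a change of more than 1.5-fold in either direction, whereas for the 4 RPE genes they exclude it in neither.

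In RPE/choroid the members varied far more between libraries than between groups. Rpe65 was at 321.6, 243.9 and 57.3 CPM in young, at 121.4, 26.8 and 332.3 CPM in aged and at 601.2, 167.1 and 108.2 CPM in 8-AG libraries, a span of 22.4-fold. Aged library 2 was the lowest of the 9 libraries in 8 members, and 8-AG library 1 the highest in 7. Young libraries 1 and 2 were among the top 4 in all 9 members and young library 3 among the bottom 4 in all 9. Aged libraries 1 and 2, which share a label number, differed 4.53-fold in Rpe65, and young libraries 1 and 2, which share another, 1.32-fold.

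**Figure D3:**
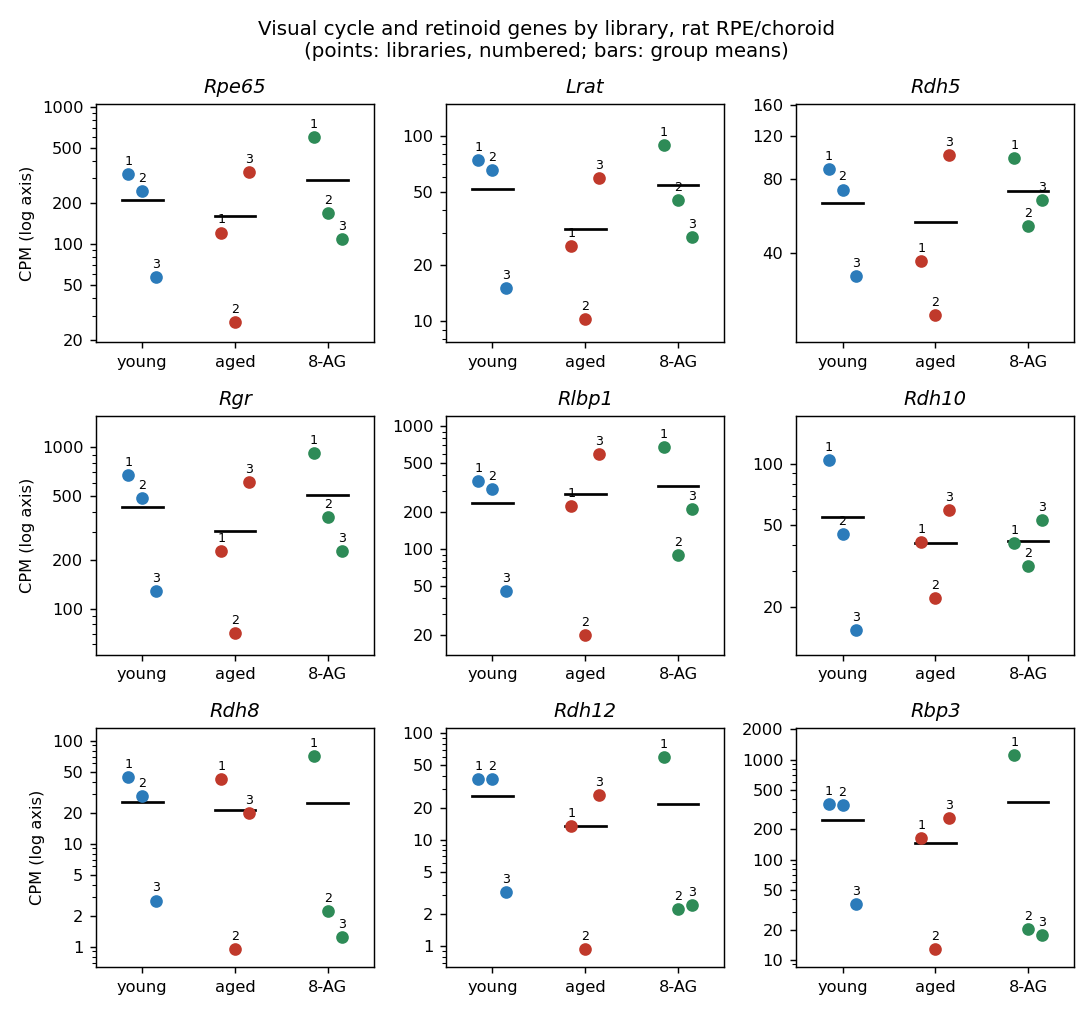
Each panel plots the CPM of one gene (log axis, scale set per panel) in the 9 RPE/choroid libraries, with points numbered by library and bars at the group means. In every panel the 3 groups overlap, and young library 3 and aged library 2 are low while 8-AG library 1 is high in all panels but that of Rdh10, where it is in the middle.

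Among the RPE members, Lrat ranged from 10.3 to 88.9 CPM, Rdh5 from 22.5 to 100 CPM and Rgr from 70.8 to 920 CPM. Relative to Rpe65, Rgr again kept within a narrow band, 153 to 264 per 100 CPM of Rpe65 (1.73-fold), and so did Slc16a8, 61.4 to 115 (1.88-fold). The summed RPE marker list did not follow Rpe65: it was at 1169 CPM in aged library 2 and 1174 CPM in 8-AG library 1, where Rpe65 was lowest and highest, and peaked at 3052 CPM in 8-AG library 3, where Mfrp, another gene of the list, was at 611 CPM. Lrat spread over 2.60-fold and Rdh5 over 5.20-fold relative to Rpe65. Best1 did not follow them either: it was highest in aged library 2 (996 CPM), where Rpe65 was lowest, and lowest in 8-AG library 1 (427 CPM), where Rpe65 was highest. The summed level of 4 pigment-cell genes, which choroidal melanocytes share with the RPE, was likewise 15585 CPM in aged library 2 and 697 CPM in 8-AG library 1.

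The photoreceptor members in RPE/choroid moved with rod genes. Rbp3 was at 360, 348 and 35.7 CPM in young, at 164, 12.7 and 263 CPM in aged and at 1097, 20.1 and 17.6 CPM in 8-AG libraries, a span of 86.6-fold. The summed rod genes spanned 89.1-fold (636 to 56645 CPM), and Rbp3 per 1000 CPM of rod genes only 1.57-fold (13.7 to 21.5). Rdh8 and Rdh12 spanned 75.0-fold and 64.0-fold, and 3.08-fold and 2.53-fold relative to rod genes. In 8-AG library 1, the highest in rod genes, genes of skeletal muscle summed to 47071 CPM, against 17 to 4560 CPM in the other libraries; the part of this mixture in the results was not tested. Young library 3, aged library 2 and 8-AG libraries 2 and 3 had rod sums of 636 to 2076 CPM, and the other 5 libraries 11915 to 56645 CPM.

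Rlbp1 (20 to 679 CPM, 34.0-fold) and Rdh10 (15.4 to 104 CPM, 6.78-fold), which more than one ocular cell type expresses, were each lowest in a library of low rod level. Rlbp1 per 100 CPM of Rpe65 spanned 3.71-fold and per 1000 CPM of rod genes 19.6-fold, so it kept closer to Rpe65 than to the rods.

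**Figure D4:**
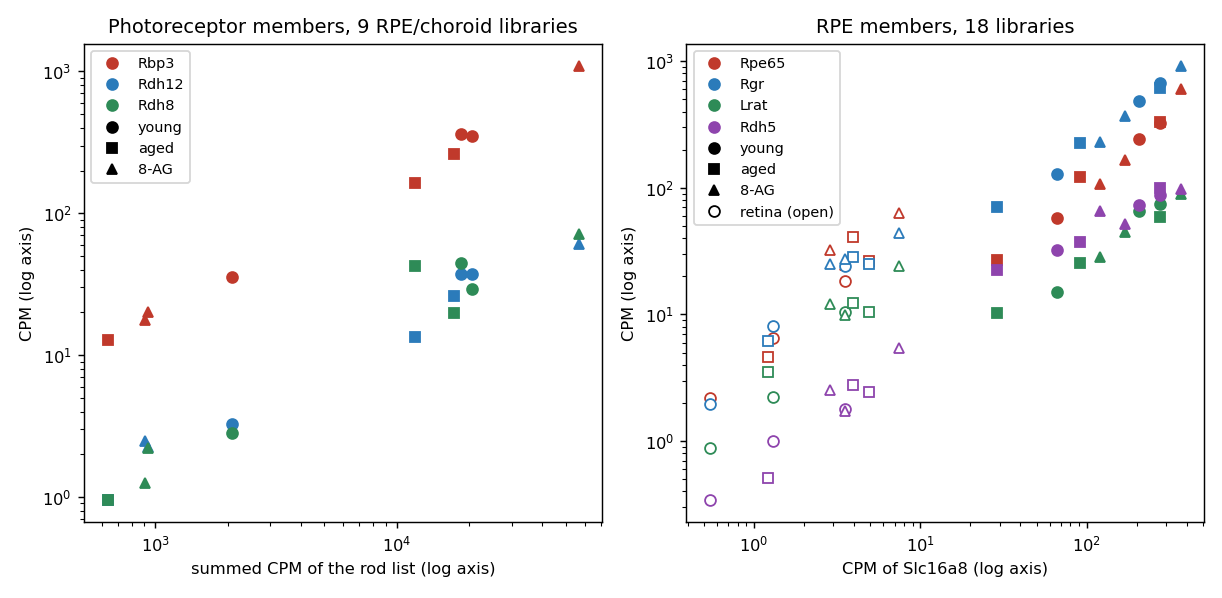
On the left, CPM of Rbp3, Rdh12 and Rdh8 against the summed CPM of 14 rod genes in the 9 RPE/choroid libraries; on the right, CPM of Rpe65, Rgr, Lrat and Rdh5 against CPM of Slc16a8 in RPE/choroid (filled) and retina (open), with marker shapes for groups and all axes logarithmic. Within each tissue the points of a gene tend to climb from the lowest to the highest libraries. The shapes of the 3 groups are intermixed. Slc16a8 was picked after its values were seen, and Best1 and the summed RPE marker list did not follow Rpe65 in RPE/choroid. Retina and RPE/choroid CPM come from tables scaled separately.

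No member passed a test in RPE/choroid. With age 0 of 9 met the fold and P rule, which 1.35% of 16047 genes met, and 0 had an unadjusted P under 0.05 or an adjusted p under 0.05 in edgeR; DESeq2 also gave 0 at an adjusted p under 0.05. Of the 9 log2 differences 8 were below 0, from -0.27 for Rdh5 and Rdh8 to -0.94 for Rdh12, and that of Rlbp1 was 0.24. The intervals were wide, for example -2.76 to 2.0 for Rpe65 and -3.66 to 2.13 for Rbp3, so that a several-fold change in either direction was not excluded for either gene. These signs were not stable: with the libraries of one label number summed, 6 members were higher and 3 lower in aged tissue, and 4 members took the other sign without young library 1 and 3 without aged library 2.

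Between 8-AG and aged RPE/choroid all 9 log2 differences were above 0, from 0.06 for Rdh10 to 1.45 for Rbp3, yet 0 of 9 met the fold and P rule, which 1.65% of 16257 genes met, 0 had an unadjusted P under 0.05 and 0 an adjusted p under 0.05 by edgeR, or by DESeq2. The 95% interval was -1.71 to 3.56 for Rpe65 and -3.16 to 6.06 for Rbp3. The rod genes were likewise higher, 14 of 14 with a median log2 difference of 1.03, and 0 of them were called. The signs depended on single libraries: without aged library 2, Rdh8 (-0.26), Rdh10 (-0.25) and Rlbp1 (-0.29) were lower after 8-AG, and summing the aged libraries of one label number turned 2 signs. Without 8-AG library 1, 6 of the 9 members were lower after 8-AG, with log2 differences of -0.23 for Rpe65, -0.02 for Rgr, -0.90 for Rlbp1, -2.54 for Rdh12, -2.97 for Rbp3 and -3.62 for Rdh8, none of them called. Rdh5 met the fold and P rule without aged library 3 (log2 1.30, unadjusted P of 0.031, adjusted p = 1 by edgeR), and Lrat when the rod level entered as a covariate (log2 1.07, unadjusted P of 0.048, adjusted p = 0.65).

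**Figure D5:**
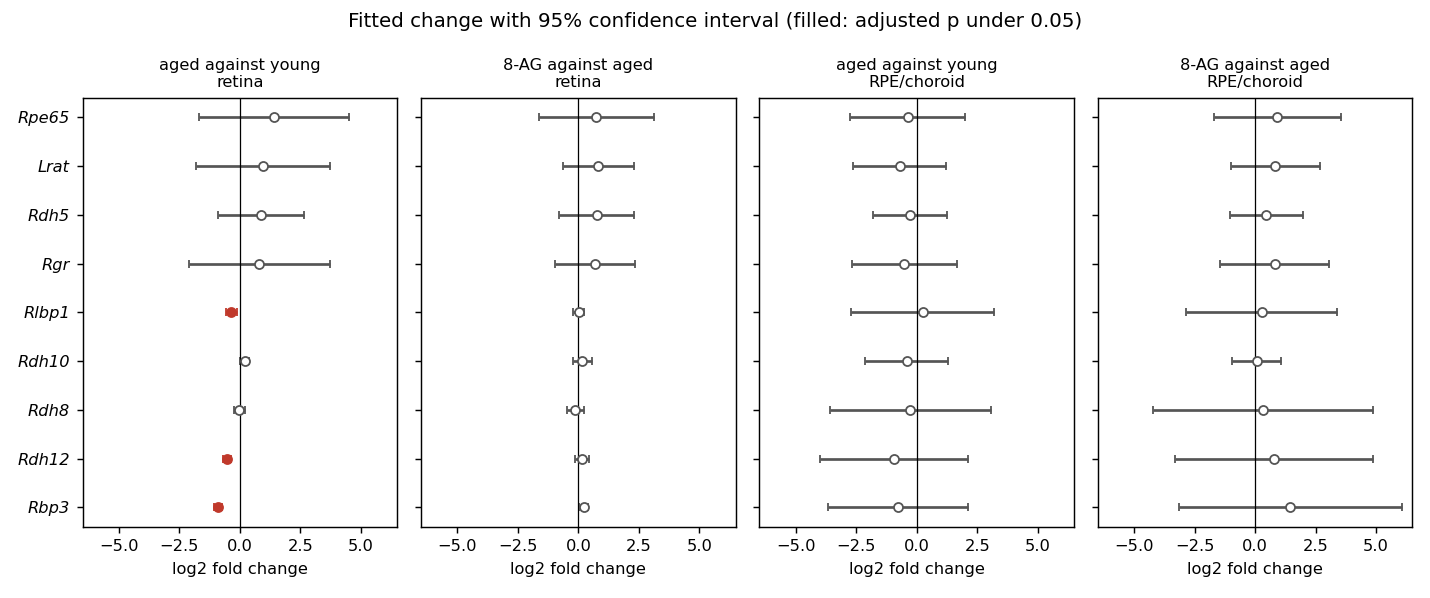
Points are fitted log2 fold changes of the 9 members and bars their 95% confidence intervals in the 4 comparisons (3 libraries a group), filled where the adjusted p over all genes was under 0.05. Only Rbp3, Rdh12 and Rlbp1 in aged against young retina are filled, and the RPE/choroid intervals span several log2 units.

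The aging change of a member was not shown to differ between tissues. In an interaction test with limma over 13686 genes 0 of the 9 members had an adjusted p under 0.05, against 0.0292% of all genes, and 0 had an unadjusted P under 0.05. For Rbp3, the change in RPE/choroid minus that in retina was -0.13 (95% interval -2.80 to 2.53, adjusted p = 1), and for Lrat, with the lowest P of the members, -2.20 (-5.32 to 0.92, unadjusted P of 0.15, adjusted p = 0.95). The Lrat value ran from -3.15 without retina young library 2 to -1.35 without retina young library 3, with an unadjusted P of 0.051 or higher in every fit that left out 1 library. The edgeR interaction test also called 0 members.

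Genes of like pattern were ranked by Pearson's r of log2 CPM over the 9 libraries of a tissue, among genes with a symbol and at least 10 counts in each library. For Rpe65 in RPE/choroid the first 5 of 14123 genes were Ddah1 (r = 0.997), the member Rgr (0.995), the amino acid transporter gene Slc6a20 (0.991), Slc16a8 (0.987) and the transcription factor gene Hnf4a (0.985). For Rbp3 there they were the photoreceptor cadherin gene Cdhr1 (0.998) and the phototransduction or outer segment genes Guca1b, Rom1, Rcvrn and Pde6g (0.996 to 0.997), of which the last 4 are in the rod list. Rbp3 and Rpe65 had r = 0.842 with each other, so the libraries that were rich in one set tended to be rich in the other.

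In retina, Cdhr1 was again among the first 5 of 13019 genes for Rbp3 (r = 0.989), behind Ybx3, AABR07026112.1, Vezt and C2cd2l (0.991 to 0.995). For Rlbp1 the first 5 were Rpap1, Begain, Phf12, Cnot9 and Abl2 (0.976 to 0.990). Rbp3 and Rpe65 had r = -0.546 in retina. These r describe 9 libraries that fall into 3 groups and are not independent points; for Rbp3 in retina the widest gap is the one between the young and all other libraries.

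Beyond the 9 members, 43 further genes of retinoid transport, storage, oxidation and signaling were listed, and 36 were found by symbol. In aged against young retina 29 were tested, and 3 rose and 4 fell at an adjusted p under 0.05; 2 of the 29, Fabp5 and Cyp26a1, also passed the fold limit (1 without aged library 2). Of all genes tested 7.29% rose and 7.26% fell at an adjusted p under 0.05 and 8.84% met the fold and P rule, so the 2 of 29 are near the share of all genes. The median log2 change of the 29 was 0.13. Among carriers, Fabp5, which encodes a fatty acid-binding protein that also binds retinoic acid, fell from 94.5 to 103 CPM in young to 62.6 to 70.1 CPM in aged libraries (log2 -0.59, adjusted p = 0.00049). Abca4, the outer segment transporter that clears retinal, fell from 1302 to 1432 CPM to 928 to 1111 CPM (log2 -0.39, adjusted p = 0.0064). Rdh11, another retinol dehydrogenase, fell as well (log2 -0.30, adjusted p = 0.033). The young and aged libraries did not overlap in any of these 3 genes.

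The other 4 genes with an adjusted p under 0.05 in aged retina were Cyp26a1, Dhrs3, Rarb and Rara, while Aldh1a1, Aldh1a3, Cyp26b1, Crabp1, Crabp2, Rarg, Rxra, Rxrb and Rxrg did not pass (adjusted p 0.074 to 0.98 by edgeR). Cyp26a1, which degrades retinoic acid, rose from 1.36 to 1.93 CPM to 2.95 to 4.47 CPM (log2 1.1, adjusted p = 0.021). Dhrs3, which reduces retinal to retinol, rose by 0.55 (adjusted p = 0.0043) on the log2 scale, from 18 to 21.6 CPM to 28.1 to 30.8 CPM. The receptor genes Rarb and Rara went opposite ways, with log2 changes of 0.53 (adjusted p = 0.0098) and -0.35 (adjusted p = 0.018). After 8-AG in retina 30 of the list were tested, 0 met the fold and P rule, against 0.957% of all genes, and 0 had an adjusted p under 0.05 in edgeR, although Sdr16c5, a retinol dehydrogenase gene named after its values were seen, met the rule without 8-AG library 2. The 1 gene with an unadjusted P under 0.05 was Fabp5, at 75.4 to 78.6 CPM after 8-AG, above the aged and below the young libraries.

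With age in RPE/choroid 35 of the list were tested, and 3 met the fold and P rule with an adjusted p of 1 each, against 1.35% of all genes. With libraries of one label number summed, 1 met it. Crabp1, a cytosolic retinoic acid-binding protein gene, was at 32.7 to 47.5 CPM in young and 51.4 to 93.6 CPM in aged libraries (log2 1.0, unadjusted P of 0.0094 by edgeR). Aldh1a2, which makes retinoic acid, was at 46.5 to 55.3 CPM in young and 23.8 to 41.7 CPM in aged libraries (log2 -0.65, unadjusted P of 0.028). Adh7, an alcohol dehydrogenase gene, had a log2 difference of 1.39 at levels of 0.216 to 1.09 CPM. After 8-AG in RPE/choroid 36 were tested and 4 met the rule, again with an adjusted p of 1 each, against 1.65% of all genes, and 2 met it with summed libraries. Cyp26a1 was at 18.1 to 21.8 CPM after 8-AG and 6.24 to 12.3 CPM in aged libraries (log2 1.17, unadjusted P of 0.011), and Rxrg, a retinoid X receptor gene, at 24.7 to 56.2 CPM and 16.7 to 19.1 CPM (log2 1.05, unadjusted P of 0.035). Crabp1 was lower (log2 -0.79, unadjusted P of 0.04), with 8-AG library 1 (52.2 CPM) inside the aged range, and Dhrs9, a retinol dehydrogenase gene, was at 0.501 to 1.25 CPM after 8-AG and 0.148 to 0.323 CPM in aged libraries. Adh7 was at 23.1 CPM in 8-AG library 1 and at 1.03 and 1.21 CPM in the other two; 6 listed genes of surface epithelium summed to 1037 CPM in that library and to 2.57 to 226 CPM in the other RPE/choroid libraries, and their part was not tested. The count of 4 rested on single libraries, being 2 without aged library 1, 1 without aged library 2, 1 without aged library 3, 7 without 8-AG library 2 and 3 without 8-AG library 1, and the count of 3 with age was 1 without young library 2.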

How the data were processed

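Bulk RNA-seq was analyzed in 9 retina and 9 RPE/choroid libraries, with 3 young, 3 aged and 3 8-AG libraries per tissue, grouped by their labels. The labels' protocols describe the RNA as poly-A captured, although the labels give total RNA as the molecule of the 3 8-AG retina libraries. For retina the authors deposited RSEM expected counts per gene, of which 11.5% were not whole, and these were rounded. For RPE/choroid the authors deposited raw counts per gene. The submitters' processing notes name Bowtie2 2.1.0, RSEM 1.2.15, edgeR and the build Rnor_6.0, without their order, and which of them made the RPE/choroid counts is not given in the sources used here. Symbols were paired with identifiers through the identifier and gene name columns of the RPE/choroid result tables that the authors deposited. These pairs were checked by value against the TMM-normalized signal table deposited for retina. Of 14881 pairs compared, 95.0% had the same values, and 1 symbol was paired by value only. Other deposited columns hold the authors' own fold changes and p-values, which were not used, and a table of 8-AG against young RPE/choroid counts was not used here.

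For each comparison a model of its 6 libraries was fitted in edgeR 4.0.16 under R 4.3.3 (filterByExpr, TMM, estimateDisp, glmQLFit with robust=TRUE, glmQLFTest). A gene was called where it changed by more than 1.5-fold with an unadjusted P under 0.05, as in the study, and Benjamini-Hochberg adjusted p-values over all genes tested are given beside it. Tissues were compared in their aging change with limma 3.58.1 (voomWithQualityWeights, with an interaction term). CPM are TMM-scaled. Correlations used log2 CPM with a prior count of 2. Confidence intervals have a level of 95%. The fits were tested on simulated data. At 12283458 to 48203050 counts a library, a low gene such as Rdh5 in retina still rests on 5 to 70 counts.

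The members, gene lists and tests were chosen with earlier results of these data known. A further marker gene that the rule names is not reported here. Named are all 9 members, Best1 as a marker, from the retinoid list the genes called or with an adjusted p under 0.05 (at most 6 of each per comparison), and for Rpe65 and Rbp3 in RPE/choroid and Rlbp1 and Rbp3 in retina the 5 genes of highest r. Outside this rule, some of the retinoid list genes that did not pass in aged retina are named too, as is Sdr16c5. Slc16a8, Slc6a20 and Mfrp are named from the RPE list, and the RPE marker covariate for retina was added, after their values were seen. Alternatives were DESeq2 1.42.0, RLE size factors, a joint fit of all 3 groups, a replicate block, no low-count filter or a minimum of 10 counts per library, unrounded expected counts, summed libraries of one label number, a marker covariate, robust=FALSE, and dropping single libraries. Promoter sequences are RefSeq's, from GRCr8, matched by symbol for 7 of 9 members; Rdh8 and Rdh10 had no entry. Tables and figures were made with Python 3.11.15, pandas 2.3.3, SciPy 1.17.1 and matplotlib 3.10.9.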

Additional observations from a re-analysis of the deposited data

How the results depend on the processing

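Of 570 member log2 changes reported and recomputed under an alternative, 520 kept direction and call, 5 were newly called, 0 lost the call, and 45 took the other sign. All 45 were changes called neither before nor after. The call was the fold and P rule, except for Lrat and Rbp3 in the test between tissues, where it was an adjusted p under 0.05. The fall of Rbp3 in aged retina kept its call under every alternative, and Rbp3 and Rdh12 kept an adjusted p under 0.05 there under every one. The common dispersion of counts was 0.195 and 0.396 in RPE/choroid against 0.0147 and 0.0179 in retina. With at least 10 counts in every library Rdh5 in retina has no value, since it does not pass that filter. The cause of the moved values was not tested.

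In retina, with the RPE marker level as a covariate, aged against young changes fell to 0.23 for Rpe65 and 0.12 for Lrat and became -0.05 for Rdh5, 0.01 for Rdh8 and -0.15 for Rgr, 8-AG against aged differences fell to 0.02 for Rpe65, 0.15 for Lrat and 0.06 for Rgr and became -0.04 for Rdh5, -0.01 for Rdh10 and -0.10 for Rlbp1, and the adjusted p of Rlbp1 in aged retina rose to 0.06. In aged against young RPE/choroid, summing libraries of one label number gave 0.26 for Rpe65, 0.20 for Rdh5, 0.06 for Rdh8, 0.06 for Rdh10 and 0.10 for Rgr, and the rod covariate gave 0.29 for Rdh8 and 0.08 for Rdh10. For 8-AG against aged RPE/choroid, summing gave -0.09 for Rdh10 and -0.09 for Rlbp1, the rod covariate gave -0.35 for Rdh8, and 1 member (Lrat) met the rule with that covariate. The edgeR interaction test gave 0.13 for Rbp3.

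Libraries of one number deviated together in some pairs and apart in others: the correlations of their deviations from the group means were -0.15, -0.15 and 0.15 in aged and young retina, 0.14, 0.05 and 0.19 in 8-AG and aged retina, 0.35, -0.57 and -0.64 in aged and young RPE/choroid, and 0.45, 0.73 and -0.26 in 8-AG and aged RPE/choroid. In no comparison were all 3 above 0.1, so the numbers were not taken to pair the libraries. With a replicate block Rlbp1 was at -0.47 in aged against young and Rdh8 at -0.35 in 8-AG against aged RPE/choroid. The block gave 0 genes at an adjusted p under 0.05 (3 without it) in 8-AG against aged retina, 138 genes meeting the rule (217 without it) in aged against young RPE/choroid, 2 retinoid list genes (4 without it) in 8-AG against aged RPE/choroid, and 2 genes (4 without it) in the test between tissues.

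Leaving out 1 library at a time, 1 to 2 members met the rule in aged retina, with log2 changes of 0.44 to 2.5 for Lrat, 0.41 to 1.51 for Rdh5, -0.12 to 0.07 for Rdh8 and -0.60 to -0.45 for Rdh12. For 8-AG against aged retina Rdh8 ran from -0.28 to 0.02, Rdh10 from -0.05 to 0.31 and Rlbp1 from -0.09 to 0.08. In aged against young RPE/choroid Rpe65 ran from -1.47 to 0.11, Rdh5 from -1.09 to 0.09, Rdh8 from -1.31 to 0.40, Rdh10 from -0.88 to 0.43 and Rlbp1 from -0.93 to 0.78. In 8-AG against aged RPE/choroid 0 to 1 members met the rule, and Rpe65 ran from -0.23 to 2.03, Rdh5 from 0.08 to 1.30, Rdh8 from -3.62 to 1.31, Rdh10 from -0.25 to 0.43, Rdh12 from -2.54 to 1.67, Rlbp1 from -0.90 to 1.47, Rgr from -0.02 to 1.82 and Rbp3 from -2.97 to 2.18. Between tissues Rbp3 ran from -1.22 to 1.21.

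Counts over all genes moved more. In aged against young retina, leaving out a library gave 1245 to 2310 genes at an adjusted p under 0.05 (2122 with all). In 8-AG against aged retina the rule called 140 genes, 318 with no filter, 92 with at least 10 counts in every library, 239 with the RPE covariate and 142 to 255 with a library left out, and at an adjusted p under 0.05 there were 3, against 18 by DESeq2, 10 with no filter, 0 with at least 10 counts, robust=FALSE or the covariate, and 0 to 3 with a library left out. For aged against young RPE/choroid the rule called 217, against 363 with no filter, 131 with all 3 groups fitted together, 1106 with the rod covariate and 213 to 414 with a library left out, and at an adjusted p under 0.05 there were 0, against 34 by DESeq2 and 1 with the rod covariate. For 8-AG against aged RPE/choroid it called 269, against 560 by DESeq2, 503 with no filter, 465 with all groups, 85 with summed libraries, 981 with the rod covariate and 86 to 733 with a library left out, and at an adjusted p under 0.05 there were 0, against 41 by DESeq2. The test between tissues gave 4, against 51 by edgeR, 0 without sample weights and 0 to 30 with a library left out. Of the retinoid list, 2 genes met the rule in aged retina, 4 with no filter, 1 with at least 10 counts and 1 to 3 with a library left out; 0 met it in 8-AG retina, 1 with no filter or robust=FALSE and 0 to 1 with a library left out; 3 met it in aged RPE/choroid, 1 with all groups or summed libraries, 8 with the rod covariate and 1 to 3 with a library left out; and 4 met it in 8-AG RPE/choroid, 2 with summed libraries and 1 to 7 with a library left out. There DESeq2 gave 1 retinoid gene, Aldh1a3, an adjusted p under 0.05.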
